A study of Mus musculus with 4 samples.

Results

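The tumour necrosis factor (TNF) ligand and receptor superfamily was followed in 2 stable lines of EPH-4, a non-tumorigenic mouse mammary epithelial cell line. Members were taken by name from the annotation of an Agilent whole mouse genome array. Every non-control probe counted whose gene name started with Tnfsf or Tnfrsf and a digit, or was Tnf, Lta, Ltb, Ltbr, Fas, Fasl, Cd40, Cd70 or Cd27. This gave 56 probes for 40 genes, out of 41174 probes and 28146 gene names. EV-50 carried the empty shRNA vector and shGR-19 an shRNA vector against the glucocorticoid receptor (GR, gene Nr3c1). Both lines had received the same puromycin resistance plasmid, both were kept in DMEM/F-12 without serum and with 2 µg/mL puromycin, and the culture description named no hormone. Each line had been raised from a lifted colony, so that GR depletion and other differences between 1 colony and another cannot be told apart. For each line 300 ng of total RNA was labelled with Cy3 for each of 2 arrays. Nothing in the labels said that the 2 arrays of a line came from separate cultures, so p-values here measure only the spread between these arrays, which may be technical.

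TNF family ligands are mostly trimeric membrane proteins, some of which are cut off and act as soluble cytokines, and their receptors cluster on binding. Some receptors carry a death domain and can start apoptosis through adaptors and caspase-8, others recruit TRAF adaptors and activate NF-kappa B and stress kinases, and decoy receptors bind a ligand without passing the signal on. In the mammary gland the family is best known for Tnfsf11 and its receptor Tnfrsf11a, which drive the growth of milk-forming epithelium in pregnancy. Many receptors of the family, such as Tnfrsf4, Tnfrsf9 and Tnfrsf18, were first described as costimulatory molecules of T cells. GR bound to hormone is known to restrain NF-kappa B, and Tnf is among the genes so affected.

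Each array was available in 2 forms, as the scanner's intensities and as a column of a table of log2 values that had been centred on each probe's median over the 4 columns. The 2 forms did not show the same thing. In the value table the 2 columns of a line lay close together (the SD of their difference over 10586 bright probes was 0.0965 log2 in EV-50, and in shGR-19 it was 0.0859), and columns of different lines lay apart (0.444 to 0.453). In the scanner files the arrays labelled replicate 1 of both lines were nearly alike (SD 0.0806), while each lay far from the array labelled replicate 2 of its own line (0.518 for EV-50, 0.624 for shGR-19). The line difference of the replicate 2 scanner arrays followed that of the value table over these probes (r = 0.953, a description across probes) and that of the replicate 1 scanner arrays barely did (r = 0.129). The targeted gene showed the same split. The value table gave all 4 Nr3c1 probes a lower level in shGR-19 (log2 differences of -1.41 to -1.94, adjusted p from 0.0022 to 0.0054). The scanner arrays labelled replicate 2 gave -1.48 to -1.96, and those labelled replicate 1 gave -0.21 to -0.35. The sources used here do not settle whose RNA the scanner files labelled replicate 1 hold, and this was not tested. The filter on background and every scanner value of replicate 1 given here rest on those files as labelled, so results are given for the value table and the scanner files side by side. The 4 arrays shared a slide and a scan.

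Of the 56 member probes, 31 (24 genes) cleared the background clearly on each array of one line or of both, and were tested with limma among 24436 such probes. Of these 31 probes 5, for 4 genes, were in the value table more than 2-fold lower in shGR-19 at an adjusted p below 0.01, and these genes were Tnfrsf18, Tnfrsf9, Fas and Tnf. That was 16.1% of the tested member probes, where 2.39% of all tested probes were called lower. No member probe was called higher, where 1.87% of all tested probes were. Without the fold limit 8 member probes (5 genes, with Tnfrsf10b the added gene) passed as lower, against 6.04% of all tested probes, and 1 probe of Tnfrsf1b passed as higher, against 5.52%. The median difference of the 31 probes was -0.33 log2, and over all tested probes it was 0.0087. In bulk RNA, fewer cells that express a gene and less RNA per cell cannot be told apart. With any 1 column left out, 1 line had only 1 column, so whether the 5 calls would hold was not judged. With the filter set by the arrays labelled replicate 2 alone, 3 probes were called lower (Tnfrsf18, Tnf and 1 of Tnfrsf9). With 1 column left out, the difference ran from -3.01 to -2.96 for Tnfrsf18, and from -2.67 to -2.47 and -2.04 to -1.59 for the Tnfrsf9 probes. It ran from -1.55 to -1.23 for the called Fas probe and from -1.08 to -0.93 for Tnf. The other 4 probes that passed kept their direction too.

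**Figure D1:**
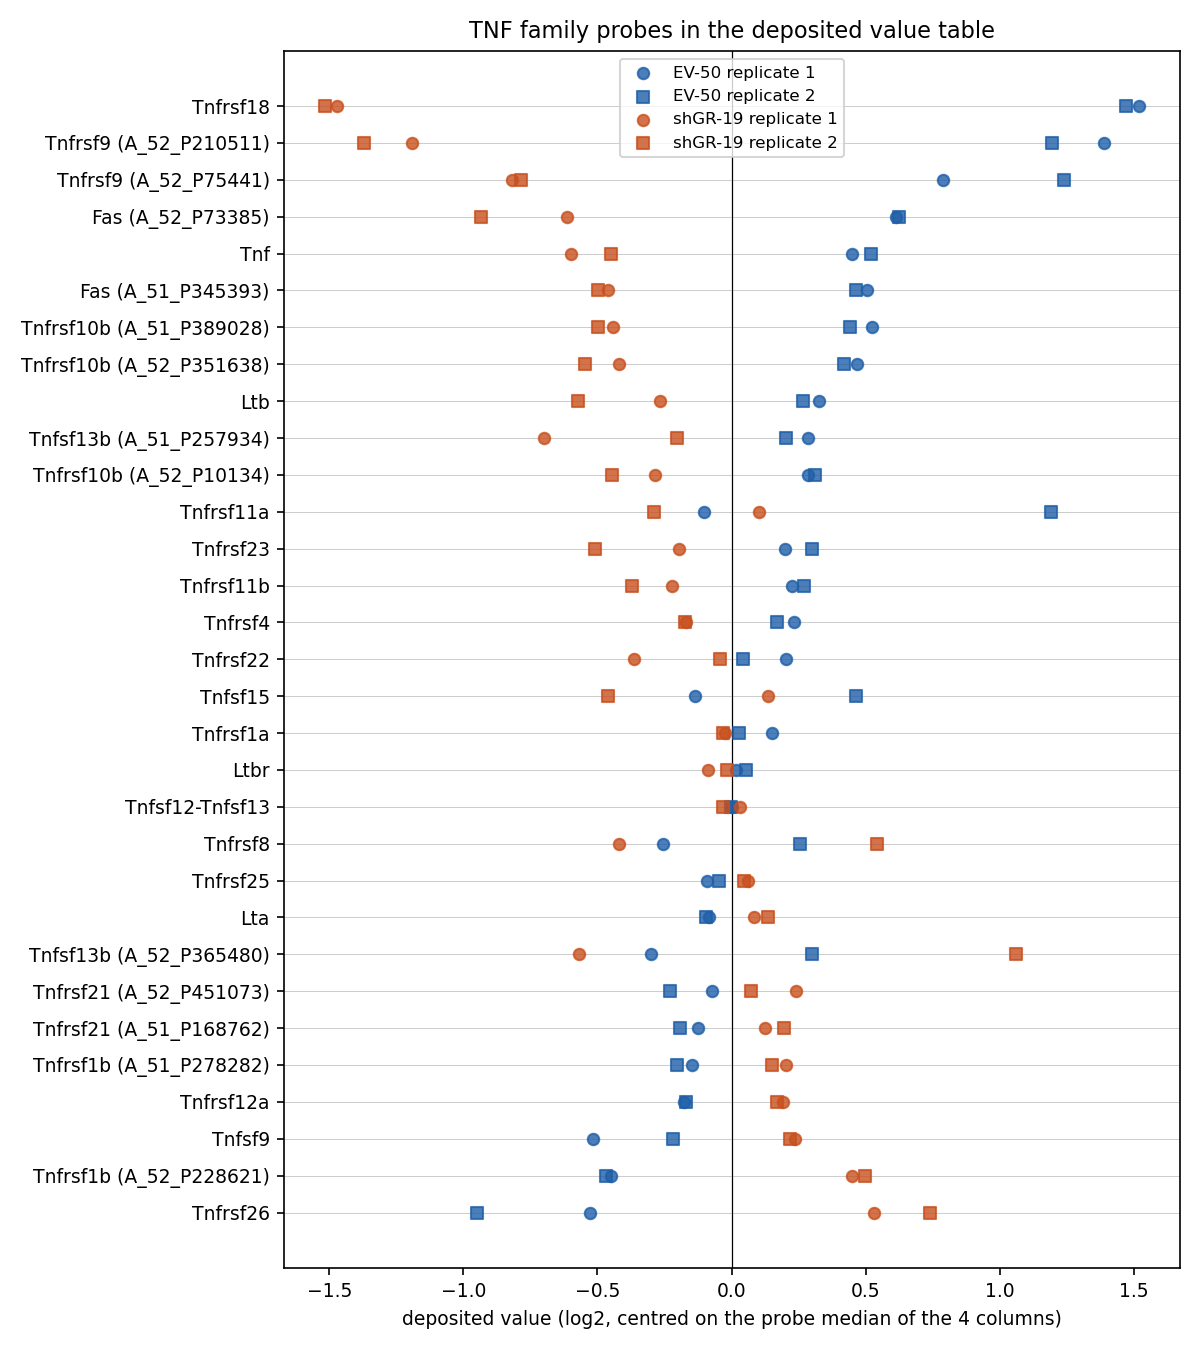
Deposited log2 values of the 31 tested TNF family probes in the 4 columns of the value table, ordered by the line difference; circles and squares are replicates 1 and 2, blue is EV-50 and orange is shGR-19. Values are centred on the probe, so positions compare columns within a probe and not probes with each other; Tnfrsf18 at the top had EV-50 columns at 1.52 and 1.47 and shGR-19 columns at -1.47 and -1.52, and Tnfrsf26 at the bottom had the opposite order.

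The largest difference of the family in the value table was that of Tnfrsf18, the receptor for Tnfsf18, which costimulates effector and regulatory T cells. The EV-50 columns held 1.52 and 1.47 and the shGR-19 columns -1.47 and -1.52, so the lines did not overlap. Tnfrsf18 was thus 7.93-fold lower in shGR-19 (log2 difference -2.99, SE 0.052, adjusted p = 0.0015). In the scanner files the gene stood at -0.32 on EV-50 replicate 2 (log2 above or below the signal that 75% of the array's spots do not exceed) and at -3.39 on shGR-19 replicate 2. On the arrays labelled replicate 1 it stood at -3.04 and -2.98, so that both of them lay near the shGR-19 array of replicate 2. Nr3c1 went the other way, since on all its tested probes both arrays labelled replicate 1 lay nearer EV-50 replicate 2. Its brightest probe, A_52_P138090, stood at 1.74 and 1.39 on them, against 1.85 on EV-50 replicate 2 and -0.11 on shGR-19 replicate 2. The Tnfrsf18 probe, A_51_P469401, lies on chromosome 4 at 155402849 to 155402908 (mm9, per the array annotation).

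Tnfrsf9, a costimulatory receptor of activated T cells that binds Tnfsf9, fell on both of its tested probes. In the value table A_52_P210511 held 1.39 and 1.19 in EV-50 and -1.19 and -1.37 in shGR-19, a 5.95-fold lower level (log2 difference -2.57, SE 0.109, adjusted p = 0.0033). A_52_P75441 held 0.79 and 1.24 against -0.82 and -0.79, a 3.52-fold lower level (-1.81, SE 0.176, adjusted p = 0.0089). The scanner files gave the same direction in both pairs of arrays, which was so for neither Tnfrsf18 nor the called Fas probe. A_52_P210511 differed by -0.56 log2 between the arrays labelled replicate 1 and by -2.35 between those labelled replicate 2, and A_52_P75441 by -1.10 and -2.59. Both probes reached an unadjusted p below 0.05 in the scanner files (0.035 and 0.012), where 0.847% of all tested probes did so. A further Tnfrsf9 probe, A_51_P137836, was well above background only on the scanner array of EV-50 replicate 1, and the value table held 3.17 for it in the column of shGR-19 replicate 1. It was not tested.

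The sequences around the start sites are shown for the genes called lower in the value table (Tnfrsf18, Tnfrsf9, Fas and Tnf). Tnfrsf1b, which passed as higher but fell short of 2-fold, is shown beside them. A reader can see in these sequences which known motifs occur. RefSeq start sites (GRCm38.p6) gave 34 windows of 300 bases, 250 before and 50 after the start, for 30 of the 40 genes. Windows were searched on both strands for the kappa B motif bound by NF-kappa B (GGGA or GGGG, any 2 bases, then TTCC), the interferon response core (GAAA, any 2 bases, GAAA), the TATA box TATAAA, the hexamer AGAACA bound by GR, and CCGGAAGT bound by GABP. In the printed windows the capitals mark the match, and no 2 matches overlap. Tnfrsf18 (chr4:156026072-156026371, plus strand) and Fas (chr19:34290409-34290708, plus strand) held none of these motifs. Tnfrsf9 has 2 annotated starts, and the window of the second (chr4:150927749-150928048, plus strand) held a kappa B match that begins 43 bases before the start, while the window of the first (chr4:150919905-150920204) held no match. Tnf (chr17:35201958-35202257, minus strand) held a TATA box 29 bases before the start. Tnfrsf1b (chr4:145246821-145247120, minus strand) held the interferon response core, on the other strand, 10 bases before the start.
Tnfrsf18: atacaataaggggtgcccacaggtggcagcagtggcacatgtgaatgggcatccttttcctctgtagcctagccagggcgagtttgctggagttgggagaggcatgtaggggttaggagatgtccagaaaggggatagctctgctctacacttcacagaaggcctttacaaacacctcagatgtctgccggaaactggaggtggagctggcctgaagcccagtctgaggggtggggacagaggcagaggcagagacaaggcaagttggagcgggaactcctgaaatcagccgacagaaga
Tnfrsf9: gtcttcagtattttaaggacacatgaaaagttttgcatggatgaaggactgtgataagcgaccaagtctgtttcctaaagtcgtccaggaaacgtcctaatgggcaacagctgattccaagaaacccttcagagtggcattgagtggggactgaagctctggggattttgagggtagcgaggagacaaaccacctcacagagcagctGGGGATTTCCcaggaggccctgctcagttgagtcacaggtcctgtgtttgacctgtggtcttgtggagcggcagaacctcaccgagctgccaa
Fas: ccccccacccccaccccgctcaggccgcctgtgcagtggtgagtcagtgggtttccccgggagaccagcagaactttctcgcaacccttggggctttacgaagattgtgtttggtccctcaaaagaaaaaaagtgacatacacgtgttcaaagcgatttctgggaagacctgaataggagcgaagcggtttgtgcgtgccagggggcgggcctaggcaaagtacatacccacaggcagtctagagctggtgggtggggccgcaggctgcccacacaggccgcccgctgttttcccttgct
Tnf: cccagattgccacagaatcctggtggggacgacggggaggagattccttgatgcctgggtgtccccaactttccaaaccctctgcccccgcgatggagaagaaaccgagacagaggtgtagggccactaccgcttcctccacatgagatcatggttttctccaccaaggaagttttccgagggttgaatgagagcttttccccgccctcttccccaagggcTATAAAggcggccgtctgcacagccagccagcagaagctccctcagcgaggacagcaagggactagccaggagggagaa
Tnfrsf1b: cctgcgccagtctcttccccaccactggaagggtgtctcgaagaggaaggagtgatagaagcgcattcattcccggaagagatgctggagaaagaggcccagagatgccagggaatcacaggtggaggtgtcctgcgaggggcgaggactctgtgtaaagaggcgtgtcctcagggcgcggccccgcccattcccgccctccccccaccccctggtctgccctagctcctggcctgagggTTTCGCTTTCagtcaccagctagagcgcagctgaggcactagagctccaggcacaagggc

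Over the 34 family windows the kappa B motif occurred in 2 (Tnfrsf9 and Ltb), where 2.92% of all 32851 windows held it. The interferon core occurred in 4 (Tnfrsf1b, Tnfrsf14, Tnfrsf17 and 1 of the 2 windows of Tnfsf13b) against 3.44% of all windows. TATAAA occurred in 6 against 13.6%, AGAACA in 1 (Tnfrsf25) against 18.97%, and CCGGAAGT in none against 3.89%. These are matches of letters in a short window and say nothing of binding.

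Of the ligands, 7 of 16 genes had a tested probe, and Tnf was the one that passed. Tnf encodes the founding cytokine of the family, and its probe was printed in 10 spots on each array. The value table held 0.45 and 0.52 in EV-50 and -0.60 and -0.45 in shGR-19, a 2.01-fold lower level (-1.01, SE 0.077, adjusted p = 0.0063). In the scanner files the values were -2.05 on EV-50 replicate 1 and -2.25 on shGR-19 replicate 1, and -4.67 and -5.02 on the arrays labelled replicate 2. The gap between the replicate labels thus exceeded the gap between the lines, which was -0.20 and -0.35 log2 in the 2 pairs. Both scanner pairs put shGR-19 lower, by much less than the value table did.

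The other ligands did not pass. Ltb, which forms heterotrimers with Lta that bind Ltbr, held 0.32 and 0.27 in EV-50 and -0.27 and -0.57 in shGR-19 (-0.71, SE 0.126, adjusted p = 0.0264). Lta held -0.08 and -0.10 against 0.08 and 0.14 (0.20, SE 0.049, adjusted p = 0.0535). Tnfsf9, the ligand of Tnfrsf9, held -0.52 and -0.22 in EV-50 and 0.24 and 0.22 in shGR-19, higher in shGR-19 by 0.60 log2 (SE 0.122, adjusted p = 0.0362), so that its sign was opposite to that of its receptor. The 2 tested probes of Tnfsf13b, a survival factor of B cells, had opposite signs (-0.70, adjusted p = 0.069, and 0.25, adjusted p = 0.80). Each was not well above background on 1 array. Tnfsf15 overlapped between the lines (-0.33, SE 0.322), and the read-through gene Tnfsf12-Tnfsf13 had the same mean in both (0.00, SE 0.051).

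Receptors with a death domain numbered 5 genes, all with a tested probe, and 4 of their 9 tested probes, for Fas and Tnfrsf10b, passed as lower in the value table, where 6.04% of all tested probes did. Fas, the receptor for Fasl, fell on both probes. The brighter, A_51_P345393 with 10 spots, held 0.50 and 0.46 in EV-50 and -0.46 and -0.50 in shGR-19, 1.95-fold lower (-0.96, SE 0.050, adjusted p = 0.0039) and so just short of the 2-fold limit. The dimmer, A_52_P73385, held 0.61 and 0.62 against -0.61 and -0.93, 2.62-fold lower (-1.39, SE 0.128, adjusted p = 0.0084). It was not well above background on the scanner array of EV-50 replicate 1. The scanner values of the brighter probe were 0.07 and 0.02 on the arrays labelled replicate 1 and 1.71 and 0.74 on those labelled replicate 2, so that the line difference was -0.97 log2 in the latter pair and -0.05 in the former.

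Tnfrsf10b, the death receptor for Tnfsf10 in the mouse, fell on 2 of 3 probes. A_51_P389028 held 0.52 and 0.44 in EV-50 and -0.44 and -0.50 in shGR-19 (-0.95, SE 0.059, adjusted p = 0.0048). A_52_P351638 held 0.47 and 0.42 against -0.42 and -0.55 (-0.93, SE 0.068, adjusted p = 0.0060). The third probe, A_52_P10134, had the same sign and missed the limit (-0.66, adjusted p = 0.0118). The 3 probes differed by -0.78 to -0.85 log2 between the scanner arrays labelled replicate 2 and by -0.18 to 0.06 between those labelled replicate 1.

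The main receptor for soluble TNF, Tnfrsf1a, differed little. Its value table columns were 0.15 and 0.03 in EV-50 and -0.03 and -0.03 in shGR-19 (-0.12, SE 0.065, adjusted p = 0.245), and its scanner values were 2.32, 2.35, 2.35 and 2.10 on EV-50 replicates 1 and 2 and shGR-19 replicates 1 and 2. Tnfrsf21 was higher in shGR-19 by 0.31 and 0.32 log2 on its 2 probes (adjusted p = 0.088 and 0.028) and Tnfrsf25, the receptor for Tnfsf15, by 0.12 (adjusted p = 0.13), and none of the 3 passed. Tnfrsf25 separated the scanner arrays by replicate label, with -4.38 and -3.86 on replicate 1 and -1.21 and -1.07 on replicate 2.

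The 3 decoy receptors were each lower in shGR-19 and none passed. Tnfrsf11b (osteoprotegerin), which captures Tnfsf11, held 0.22 and 0.27 in EV-50 and -0.22 and -0.37 in shGR-19 (-0.55, SE 0.074, adjusted p = 0.0161). Tnfrsf23 held 0.20 and 0.30 against -0.20 and -0.51 (-0.60, SE 0.131, adjusted p = 0.041) and Tnfrsf22, like it a decoy for Tnfsf10, differed by -0.33 (SE 0.143, adjusted p = 0.166).

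Among the remaining receptors the one probe that passed as higher was that of Tnfrsf1b, which responds best to membrane-bound TNF and recruits TRAF adaptors. A_52_P228621, with 10 spots, held -0.45 and -0.47 in EV-50 and 0.45 and 0.50 in shGR-19, 1.91-fold higher in shGR-19 (0.93, SE 0.049, adjusted p = 0.0040). On the scanner it stood at 0.23 and 0.29 on the arrays labelled replicate 1 and at 0.43 and 1.43 on those labelled replicate 2. A dimmer Tnfrsf1b probe, A_51_P278282, had the same sign and a smaller difference (0.35, adjusted p = 0.0198).

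Tnfrsf26 had a larger difference but also a larger spread. It held -0.53 and -0.95 in EV-50 and 0.53 and 0.74 in shGR-19, 2.59-fold higher in shGR-19 (1.37, SE 0.183, adjusted p = 0.0154). It was not well above background on the scanner array of EV-50 replicate 1. Tnfrsf12a, the receptor for Tnfsf12, was higher in shGR-19 by 0.36 log2 (columns -0.18 and -0.17 against 0.19 and 0.17, SE 0.046, adjusted p = 0.0147). Tnfrsf4 differed by -0.37 log2 (adjusted p = 0.0163), and Ltbr differed by -0.09 (adjusted p = 0.276). The receptor of the mammary regulator Tnfsf11, Tnfrsf11a, had columns that overlapped between the lines, -0.10 and 1.19 against 0.10 and -0.29 (-0.64, SE 0.510, adjusted p = 0.396), and without EV-50 replicate 2 the difference was 0.010. Its scanner arrays gave the opposite sign in both pairs (0.53 and 0.62 log2 higher in shGR-19, unadjusted p = 0.045). This Tnfrsf11a probe was dim and not well above background on the scanner array of EV-50 replicate 1, and the gene's other probe was so on no array. The columns of Tnfrsf8 overlapped between the lines too (0.06, SE 0.413).

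In the scanner files no probe of the whole array passed an adjusted p below 0.01 (0% of those tested, smallest adjusted p 0.957), and at an unadjusted p below 0.05 there were 207 probes, 3 of them members. With arrays of a line this far apart, the lack of calls does not show that the lines were alike. Taken as single pairs of arrays with no test, 5 member probes were more than 2-fold lower and 1 more than 2-fold higher in shGR-19 between the arrays labelled replicate 2, where 3.23% and 2.32% of all probes were. Between the arrays labelled replicate 1 there was 1 each way, where 1.12% and 2.44% of all probes were. The median size of the line difference over the 31 member probes was 0.14 log2 in the replicate 1 pair and 0.56 in the replicate 2 pair, and arrays of the same line but different replicate label differed by a median of 0.55 (EV-50) and 0.72 (shGR-19). The sign of the value table was shared by 29 of the 31 probes in the replicate 2 pair and by 17 in the replicate 1 pair. In the value table the columns of the lines did not overlap for 26 of the 31 member probes (83.9%), where 71.9% of all tested probes did not overlap.

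**Figure D2:**
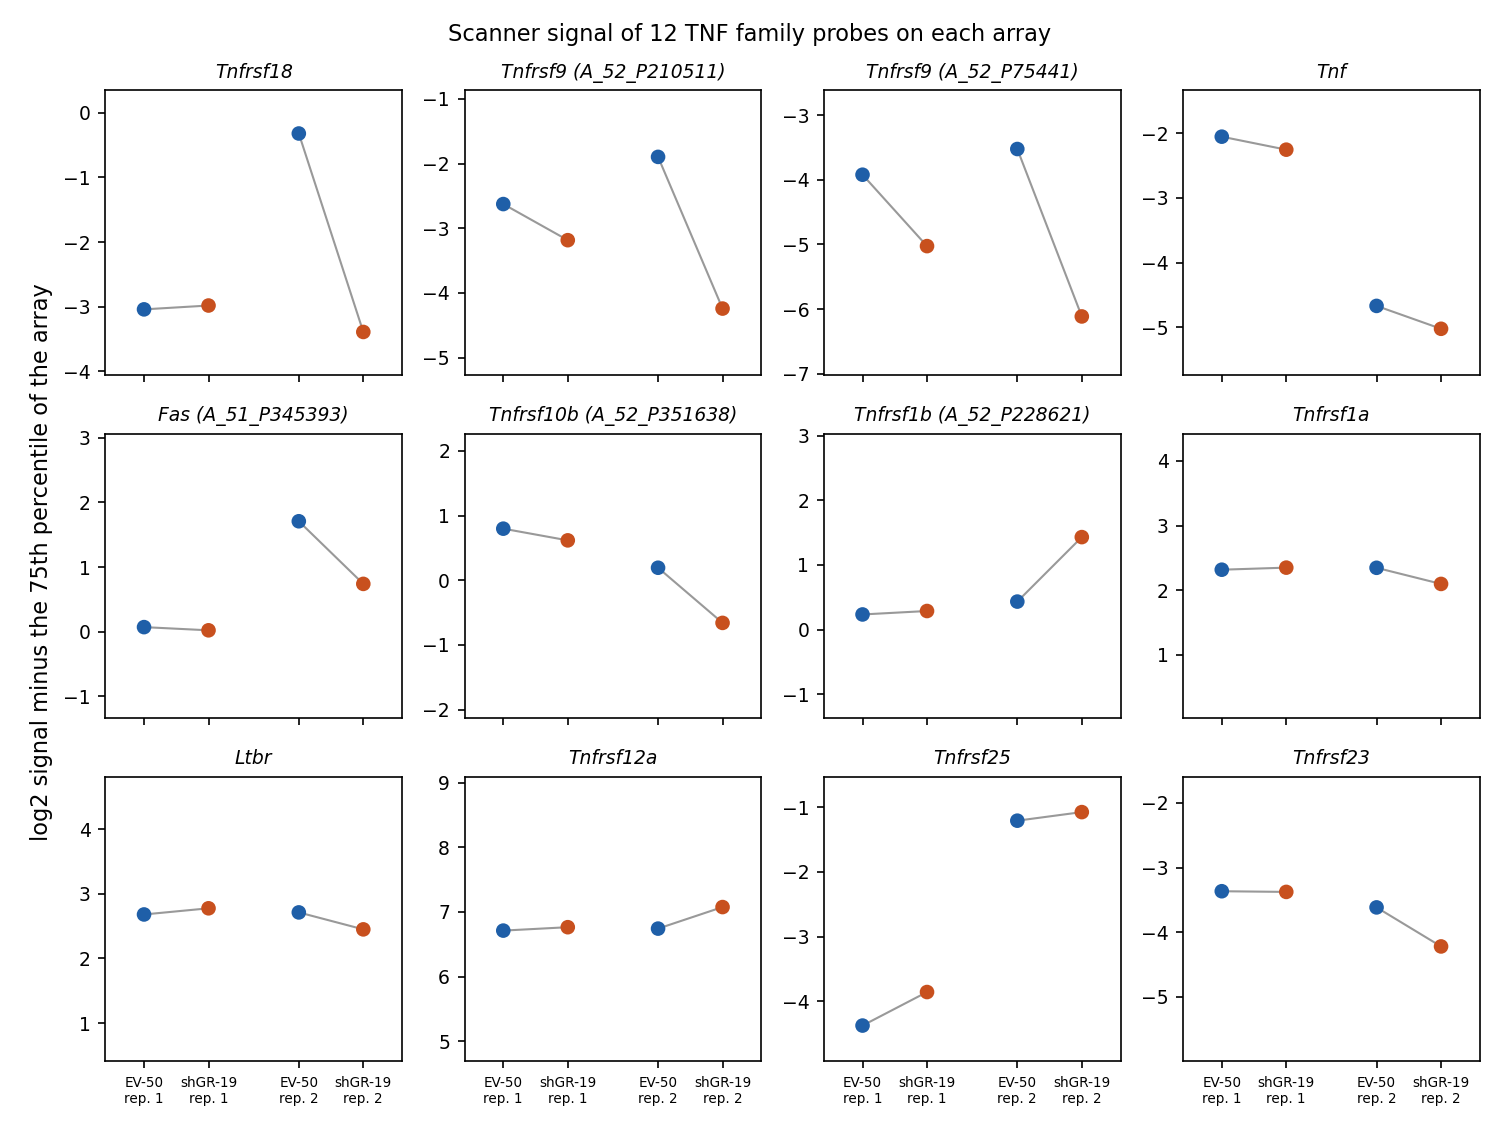
Scanner signal, scaled to each array and in log2 units, of 12 TNF family probes on the 4 arrays; blue is EV-50, orange is shGR-19, and grey lines join the arrays with the same replicate label, each panel spanning the same range of log2 units. Tnfrsf18 fell from -0.32 to -3.39 between the replicate 2 arrays and stood at -3.04 and -2.98 on the replicate 1 arrays, while Tnf and Tnfrsf25 separated the replicate labels and not the lines.

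**Figure D3:**
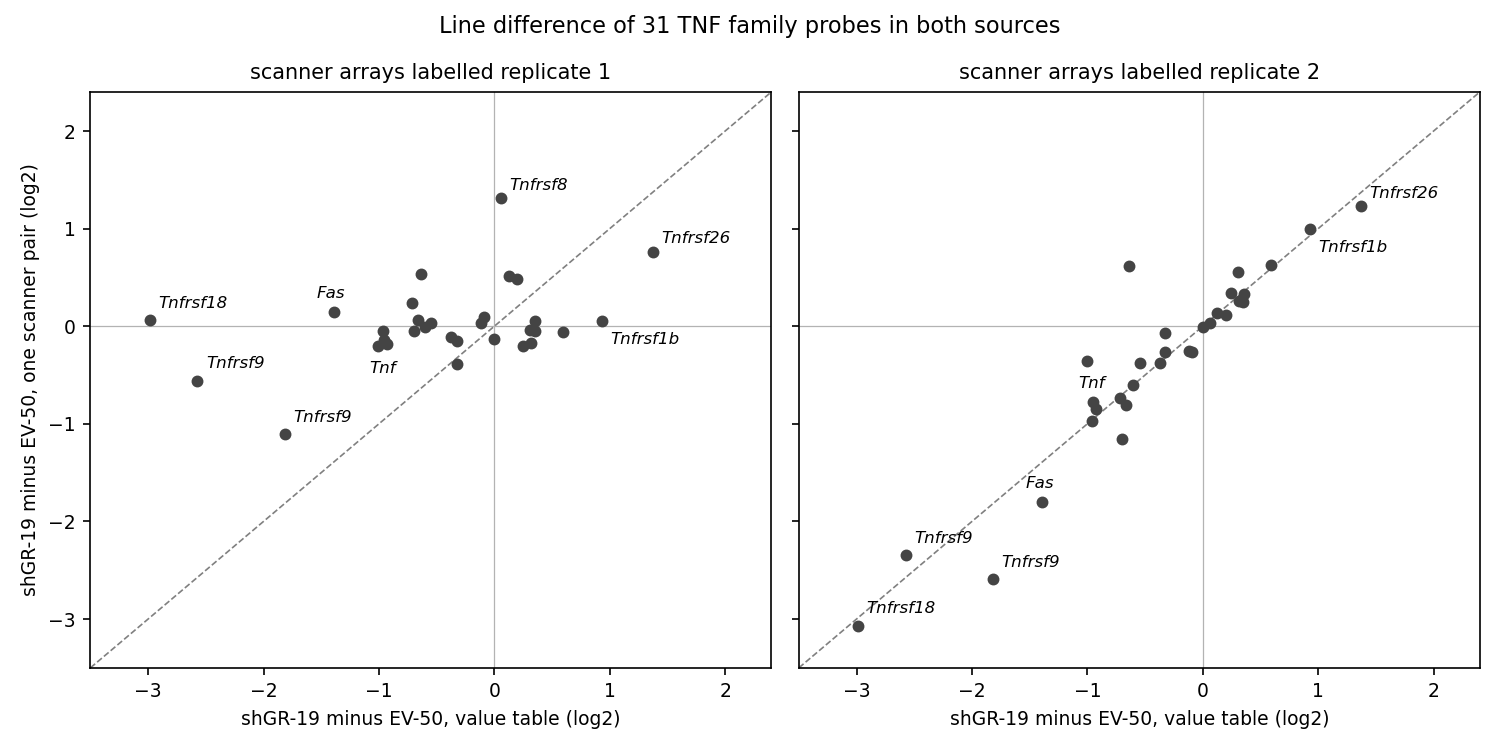
Line difference (shGR-19 minus EV-50, log2) of the 31 tested member probes in the value table on the x axis against the same difference between 2 scanner arrays on the y axis, for the arrays labelled replicate 1 on the left and replicate 2 on the right; the dashed line marks equal values. For replicate 2, 29 of the 31 probes had the sign of the value table, with Tnfrsf11a at 0.62 against -0.64 and Tnf at -0.35 against -1.01 away from the line. For replicate 1, 17 had it, with Tnfrsf18 at 0.06, Tnfrsf9 at -0.56 and -1.10, Tnfrsf26 at 0.76 and Tnfrsf8 at 1.31.

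Several tested members lie close to each other in the genome (probe positions in mm9), and their differences in the value table are set side by side here. Tnfrsf18 and Tnfrsf4 have probes within 12.3 kb of each other on chromosome 4, and the differences were -2.99 and -0.37 log2. Ltb, Tnf and Lta lie within 7.24 kb on chromosome 17, in the class III region of the major histocompatibility complex, with differences of -0.71, -1.01 and 0.20. Tnfrsf26, Tnfrsf22 and Tnfrsf23 lie within 60.5 kb on chromosome 7, with 1.37, -0.33 and -0.60. These last genes belong to 1 local cluster, and no pair of probes of different members shared more than 29 of 60 bases without gaps. On chromosome 4 Tnfrsf1b and Tnfrsf8 (78.3 kb) differed by 0.93 and 0.06, and on chromosome 6 Ltbr and Tnfrsf1a (55.8 kb) by -0.09 and -0.12. The differences between neighbours were not tested against each other.

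**Figure D4:**
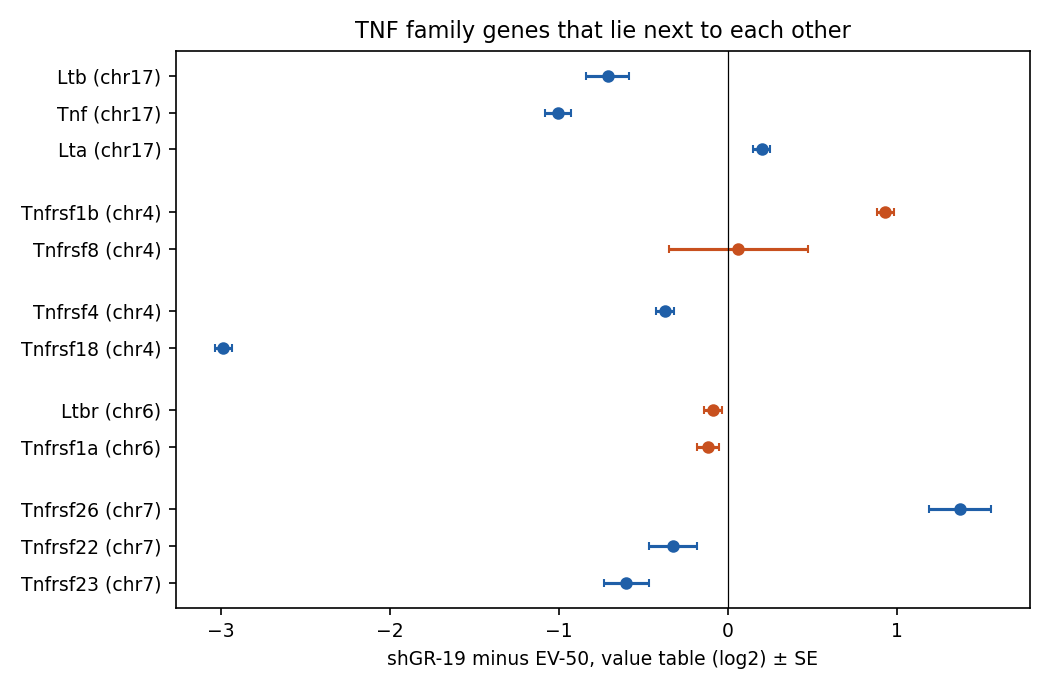
Line difference in the value table (log2, shGR-19 minus EV-50, bars are the standard error from limma, n = 2 columns per line) for TNF family genes whose probes lie within 200 kb of each other, grouped by neighbourhood with alternating colours. Within the Tnfrsf18 and Tnfrsf4, the Ltb, Tnf and Lta, and the Tnfrsf26, Tnfrsf22 and Tnfrsf23 groups the genes took different values.

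For 16 genes no probe cleared the background on both arrays of a line, and they were not tested. For 11 of them (the ligands Fasl, Cd70, Tnfsf4, Tnfsf8, Tnfsf11, Tnfsf12, Tnfsf14 and Tnfsf18 and the receptors Cd40, Tnfrsf13b and Tnfrsf13c) no probe was well above background on any array. Tnfsf18, which binds Tnfrsf18, and Fasl, which binds Fas, were thus not well above background in either line. Tnfsf10, the ligand of Tnfrsf10b, was above background on both arrays labelled replicate 2 and on neither labelled replicate 1, and so was Cd27. Tnfrsf14, Tnfrsf17 and Tnfrsf19 were above background on 1 array each. On these arrays a signal at background gives no level for a gene.

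Genes that act with these receptors, a list of adaptors, kinases, inhibitors and sheddases had a tested probe for 46 of 48 genes. By the value table, 5 passed as lower in shGR-19 and 1 as higher, 10.9% and 2.17% of the 46, where 6.04% and 5.52% of all tested probes passed, and 40 did not pass. Those more than 2-fold lower (2 of 46, 4.35%, where 2.39% of all tested probes were) were Traf1, an adaptor that binds the tails of Tnfrsf1b and Tnfrsf9 and is itself a target of NF-kappa B (-1.08, SE 0.048, adjusted p = 0.0034), and Tnfaip8, a TNF-induced regulator of apoptosis (-1.04, SE 0.072, adjusted p = 0.0055). The others that fell were Tnip1, which restrains NF-kappa B signalling (-0.97), the death domain protein Madd (-0.96) and Rbck1 of the linear ubiquitin ligase (-0.48). Cflar, the inhibitor of caspase-8 activation, rose by 0.66 log2 on its brightest probe (adjusted p = 0.0078). Of its 6 tested probes 2 passed as higher, and A_51_P135491 and A_52_P192071 had the opposite sign (-0.10, adjusted p = 0.51, and -0.05, adjusted p = 0.85). Of the 40 that did not pass, Traf5 was lowest (-0.69, adjusted p = 0.0164) and Traf6 highest (0.52, adjusted p = 0.0153). The median of the list was -0.05 log2. With any 1 column left out, 1 line had only 1 column, so no count of calls is given for that. Between the scanner arrays labelled replicate 2 Traf1 differed by -1.01 and Tnfaip8 by -0.97, and between those labelled replicate 1 by -0.11 and -0.13. In the scanner files none of the 46 reached an unadjusted p below 0.05 with limma.

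**Figure D5:**
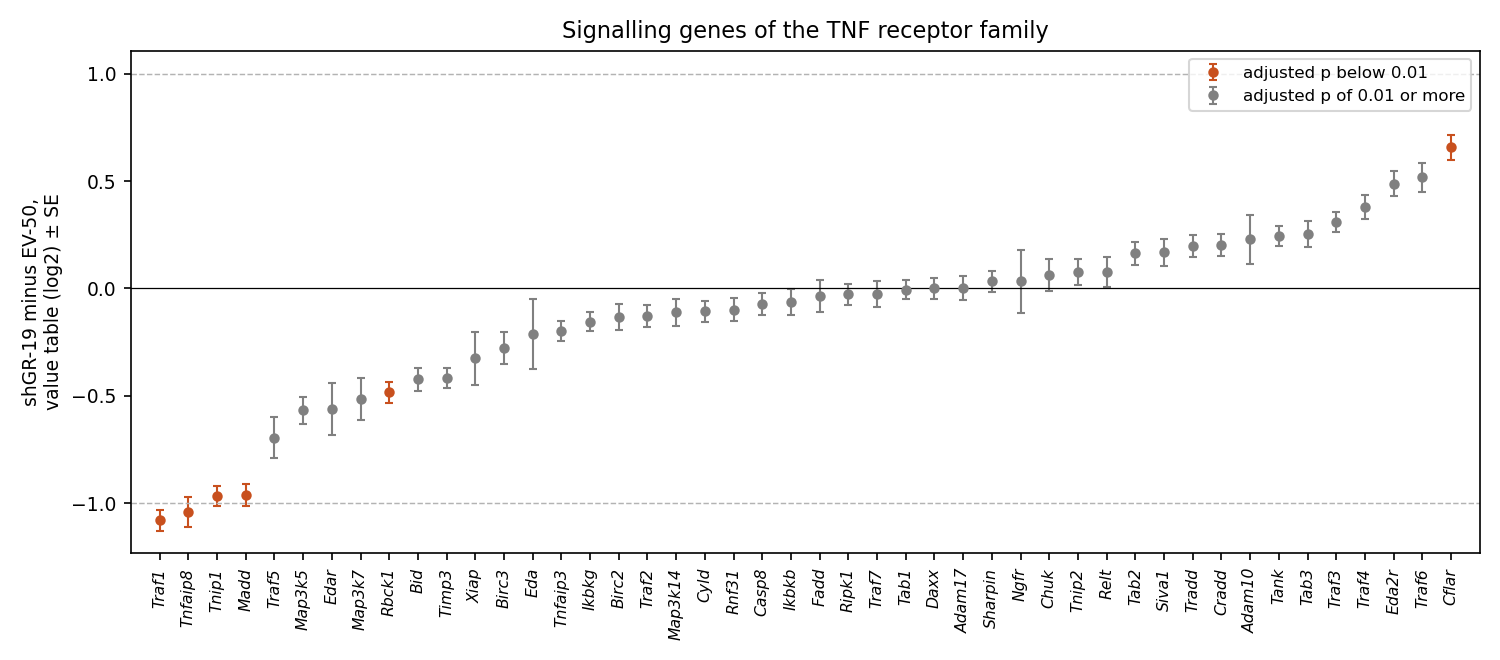
Line difference in the value table (log2, shGR-19 minus EV-50, bars are the standard error from limma, n = 2 columns per line) of 46 genes of TNF receptor signalling, ordered by value, with orange for an adjusted p below 0.01 over all tested probes and dashed lines at 2-fold. Traf1 and Tnfaip8 at the left end lay past the lower line, Cflar at the right end was at 0.66, and most genes lay near 0.

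Because many of these receptors are best known from immune cells, markers of other cell types were read on the same arrays. Of 12 immune markers 7 had a tested probe, none of them was called, and the defining markers Ptprc, Itgam, Emr1, Cd3d and Ms4a1 were above background on no array. The summed level of the list (log2 of the summed scaled scanner signal) was 1.68 to 1.75 in EV-50 and 1.30 to 1.55 in shGR-19. Cd14 fell by 0.81 log2 in shGR-19 (adjusted p = 0.0045). It was by far the brightest gene of the list, so the summed level is mostly that of Cd14. Its scanner values were 1.28 and 1.38 in EV-50 and 1.13 and 0.71 in shGR-19. The next highest value of the list was -1.62, for Csf1r on shGR-19 replicate 2. Epithelial markers were present, with 6 of 7 tested and summed levels of 9.28 to 9.30 in EV-50 and 9.09 to 9.36 in shGR-19. Krt14 fell by 1.13 log2 in shGR-19 (adjusted p = 0.0033). It differed by 0.02 between the scanner arrays labelled replicate 1 and by -1.19 between those labelled replicate 2. Krt5, like Krt14 a basal keratin, overlapped between the lines (-0.30, adjusted p = 0.50). Krt8, Krt18, Epcam and Cdh1 differed by -0.03 to 0.23 and did not pass. The untested Krt19 differed by -2.76 in the value table, and was well above background only on EV-50 replicate 2 and shGR-19 replicate 1. All 3 tested fibroblast markers of 5 were called higher in shGR-19, Col1a2 by 3.27, Pdgfrb by 2.03 and Pdgfra by 1.16 log2, where 1.87% of all tested probes were. Between the scanner arrays labelled replicate 2 these genes differed by 3.36, 2.16 and 1.16 log2. Between those labelled replicate 1 they differed by -0.05, 0.19 and 0.73, and Pdgfra was not well above background on EV-50 replicate 1. The untested Col1a1, above background only on both arrays labelled replicate 2, differed by 5.57 in the value table, and Col3a1, above background on 1 array, by 1.65. The summed level of all 5 was 0.85 to 2.64 in EV-50 and 0.83 to 5.56 in shGR-19. No endothelial marker of 4 was tested. The part of these marker differences in the family's differences was not tested.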

How the data were processed

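The authors labelled RNA with Cy3, hybridized it to Agilent arrays and extracted spots with Agilent Feature Extraction 10.5.1.1 (default one-colour settings). The deposited scanner intensity of a spot was background-subtracted and detrended, and not scaled between arrays. The deposited log2 values were made by the authors in GeneSpring, and 100% of the 41265 probes had a median of 0 over the 4 columns within 1e-05, so no level can be read from them. Column medians ran from -0.063 to 0.076. Direction followed the labels.

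Here, log2 intensities were centred on each array's 75th percentile, without control and outlier spots, and spots of 1 probe were averaged. The arrays had 23290 to 27358 of 43379 spots well above background and none saturated, and their number limits precision. A probe was kept where both arrays of a line had it well above background, and kept probes were tested with limma 3.58.1 (R 4.3.3) with Benjamini-Hochberg adjustment over all of them. A probe was called at more than 2-fold and an adjusted p below 0.01. Of a signalling gene the brightest probe counted. Named were called probes, the 8 largest other changes each way, and Tnf, Lta, Ltb, Ltbr, Fas, Fasl, Cd40, Tnfrsf1a, Tnfrsf1b, Tnfrsf10b, Tnfrsf11b, Tnfrsf12a, Tnfrsf18, Tnfsf10, Tnfsf11 and Tnfsf12. Members, lists and tests were chosen with earlier results of these data known. The fit was tested on simulated data.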

Additional observations from a re-analysis of the deposited data

How the results depend on the processing

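In the value table the 5 called family probes stayed 5 with each column centred on its median. They became 4 with probes above background on all 4 arrays. They became 6 with an intensity trend and robust prior, without adjustment, or at an adjusted p below 0.05. The probe added there was that of Tnfrsf26, higher in shGR-19 by 1.37 log2. With all probes kept 1 was called, with probes above background on at least 1 array labelled replicate 2 there were 3, and with the brightest probe of each gene 3. With no limit on the fold there were 9, 8 lower and 1 (Tnfrsf1b) higher. A plain equal-variance t-test at the fold and p limits of the methods called 3 before and 0 after adjustment. With a replicate block limma called 0. The share of all tested probes is not given for each of these settings, so the counts do not compare the family with the array. The labels give both lines the numbers 1 and 2, and arrays of 1 number deviated together (r = 0.707 over probes in the scanner files, 0.427 in the value table), but with 2 pairs the number is all they are known to share. The 2 called signalling genes became 0 with all probes kept, under the block, and after adjustment of the plain t-test, and 6 with no limit on the fold. In the scanner files every limma setting called 0 of either set, and the arrays labelled replicate 2 alone, chosen after seeing the data and with no test, gave 6 family probes and 2 signalling genes past 2-fold. Leaving out 1 array turned the sign of 21 of the 31 family probes in the scanner files, among them Tnf (-1.66 to 1.11, with 1.03 without EV-50 replicate 1), Fas probe A_51_P345393 (-1.33 to 0.31) and Tnfrsf10b probe A_52_P351638 (-1.16 to 0.12). Leaving out 1 column of the value table turned it for 4 of 31, Tnfrsf11a (-1.28 to 0.010), Tnfrsf8 (-0.42 to 0.54), Tnfsf12-Tnfsf13 (-0.030 to 0.033) and Tnfsf13b probe A_52_P365480 (-0.57 to 1.06, with -0.054 without EV-50 replicate 1). With 1 array left out the lines no longer hold the same replicate labels, so a gap between labels enters the line difference. Its part in these turns was not tested. The share of all tested probes that turned is not given, so the counts do not set the family apart. A line left with 1 array has no spread of its own, so only differences are given for such fits. Slide and scan could not be fitted, since all arrays shared both.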
